A study of Homo sapiens with 3 samples.

Results

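The 7 genes SREBF1, SREBF2, SCAP, INSIG1, INSIG2, STARD4 and MYLIP, which act in sterol sensing and the control of lipoprotein uptake, were examined in PANC-1 cells. They were taken by symbol from the deposited count table, and 7 of its 51136 genes matched, 1 row for each name. PANC-1 is an established human pancreatic cancer cell line. RNA-seq was done on 3 libraries: untreated cells (control, no agent named), cells given 200 μM Ginsenoside Rg3, a saponin of ginseng, for 24 h, and cells given 50 μM tamoxifen (TAM), a nonsteroidal antiestrogen, for 24 h. There was 1 library per condition, so no difference below has a replicate check, no p-value was computed, and a difference between cultures and an effect of treatment cannot be told apart. The labels name no vehicle for the control cells.

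SREBF1 and SREBF2 encode the membrane-bound transcription factors SREBP-1 and SREBP-2, which switch on genes of fatty acid and cholesterol synthesis. SCAP escorts both factors from the endoplasmic reticulum (ER) to the Golgi, where proteases release their active part, while INSIG1 and INSIG2 hold the SCAP complex in the ER when sterol is plentiful. STARD4 is a soluble carrier of cholesterol between membranes, and MYLIP is a ubiquitin ligase, switched on by the sterol-activated LXR receptors, that sends lipoprotein receptors to degradation.

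The stretch before the RefSeq start site is shown for 4 of the genes, since INSIG1 and STARD4 had the largest differences with Rg3, SREBF2 encodes one of the factors, and MYLIP was lower with both treatments. Each is the 250 bases before the start (GRCh38.p14, 5′ to 3′ on the strand of the gene), with capitals for matches to a sterol regulatory element (SRE, searched as TCACNCCAC), a CCAAT box (CCAAT) and an E box (CACGTG), each on both strands.
SREBF2 (chr22:41832855-41833104, plus strand): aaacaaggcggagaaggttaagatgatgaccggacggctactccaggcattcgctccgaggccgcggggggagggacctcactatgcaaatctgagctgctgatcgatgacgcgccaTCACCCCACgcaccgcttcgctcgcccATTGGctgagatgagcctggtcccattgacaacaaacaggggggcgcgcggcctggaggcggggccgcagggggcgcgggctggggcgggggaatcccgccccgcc
INSIG1 (chr7:155297628-155297877, plus strand): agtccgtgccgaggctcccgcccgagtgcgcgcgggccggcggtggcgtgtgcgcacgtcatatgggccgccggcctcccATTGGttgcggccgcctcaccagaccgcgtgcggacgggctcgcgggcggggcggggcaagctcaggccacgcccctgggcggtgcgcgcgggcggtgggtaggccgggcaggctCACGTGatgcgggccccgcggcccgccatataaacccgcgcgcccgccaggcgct
STARD4 (chr5:111512536-111512785, minus strand): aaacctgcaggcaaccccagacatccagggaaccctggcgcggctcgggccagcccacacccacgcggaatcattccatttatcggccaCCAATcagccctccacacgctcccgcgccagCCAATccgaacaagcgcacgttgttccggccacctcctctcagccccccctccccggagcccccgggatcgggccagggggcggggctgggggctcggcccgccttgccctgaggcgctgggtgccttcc
MYLIP (chr6:16128836-16129085, plus strand): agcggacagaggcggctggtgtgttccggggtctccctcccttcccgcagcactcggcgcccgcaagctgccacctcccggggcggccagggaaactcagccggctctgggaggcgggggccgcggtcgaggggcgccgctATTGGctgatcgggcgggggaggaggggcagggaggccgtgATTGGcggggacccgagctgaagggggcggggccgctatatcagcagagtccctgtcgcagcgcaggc
The SRE letters matched once among the 7 genes, in SREBF2, at 133 to 125 bases before the start, and 0.883% of 35116 RefSeq promoter windows of this length hold a match. CCAAT boxes were found in SREBF2 (1), INSIG1 (1), STARD4 (2) and MYLIP (2), against 32.0% of all windows with at least 1. E boxes were found in INSIG1 and SCAP, at 55 to 50 and 58 to 53 bases before the start, against 6.34% of windows. A direct repeat read by LXR (AGGTCA, then 4 bases of any kind, then AGGTCA again, both strands) matched in 0 of the 7 genes and 0.0142% of windows. GC boxes (GGGCGG), left in lower case because 42.6% of windows hold one, were found in each of the 7 genes, and 2 of the 5 in INSIG1 overlap each other. No marked match overlaps another. These matches describe the letters of a window and not sites of binding.

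Gene counts summed to 11300766 for control, 12861693 for Rg3 and 11321442 for TAM. Counts were scaled by edgeR's TMM factors (trimmed mean of M-values), and division by library totals would put each log2 fold change 0.14 higher with Rg3 and 0.21 lower with TAM. A gene is called higher or lower, risen or fallen, when its fold was over 1.5 or under 0.67 (0.58 or -0.58 on the log2 scale), the fold limits of the study's methods, among genes that reached 10 counts in 1 of the libraries compared. Intervals are exact 95% intervals (Clopper-Pearson for ratios of counts) and cover counting error only. Fold changes of all genes moved with the GC content of their transcripts (Spearman's rho -0.81 with Rg3 over 11583 genes and 0.51 with TAM over 11022 genes with at least 50 counts, as descriptions), so the fold left after removal of a smooth trend on GC content and transcript length is given beside the values of the 7 genes and the gene lists that it changes. The keratins KRT8 and KRT18 had 7406 to 15329 counts per library and KRT19 181 to 665, while EPCAM, another epithelial marker, had 8 to 26. Markers of leukocytes, endothelium, acinar and islet cells (6 genes) had 0 to 3 counts, with CELA3A, CPB1 and CHGA at 0 in each library. The part of the keratin counts in the results was not tested.

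In control cells, the factor SREBF1 had the highest level of the 7 genes per transcript length, at 69.7 (CPM, the count as a share of the TMM-scaled library total, divided by transcript length in kilobases, 95% interval 67.4 to 71.9), with lengths from the longest GENCODE 29 transcript. SCAP (31.1, 29.6 to 32.7) and SREBF2 (29.7, 28.4 to 31.0) followed and did not differ beyond their intervals. INSIG1 was at 10.3, MYLIP at 2.90, INSIG2 at 1.81 and STARD4 at 0.851. With Rg3 the order changed: INSIG1 came first at 75.9, ahead of SREBF2 (40.2), SREBF1 (36.5) and SCAP (22.6). STARD4 (5.59, 5.04 to 6.19) and INSIG2 (4.47, 3.88 to 5.13) had overlapping intervals there, and MYLIP was last at 1.64. With TAM, SCAP came first at 39.2, followed by SREBF2 (25.0), SREBF1 (15.1) and INSIG1 (8.15). INSIG2 (1.80, 1.36 to 2.33) and MYLIP (1.11, 0.757 to 1.58) overlapped, and STARD4 was last at 0.305. The longest transcript of SREBF1, SREBF2 and INSIG2 is not annotated as protein coding. Their levels here rest on its length, and their values with the trend removed rest on its length and GC content.

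**Figure D1:**
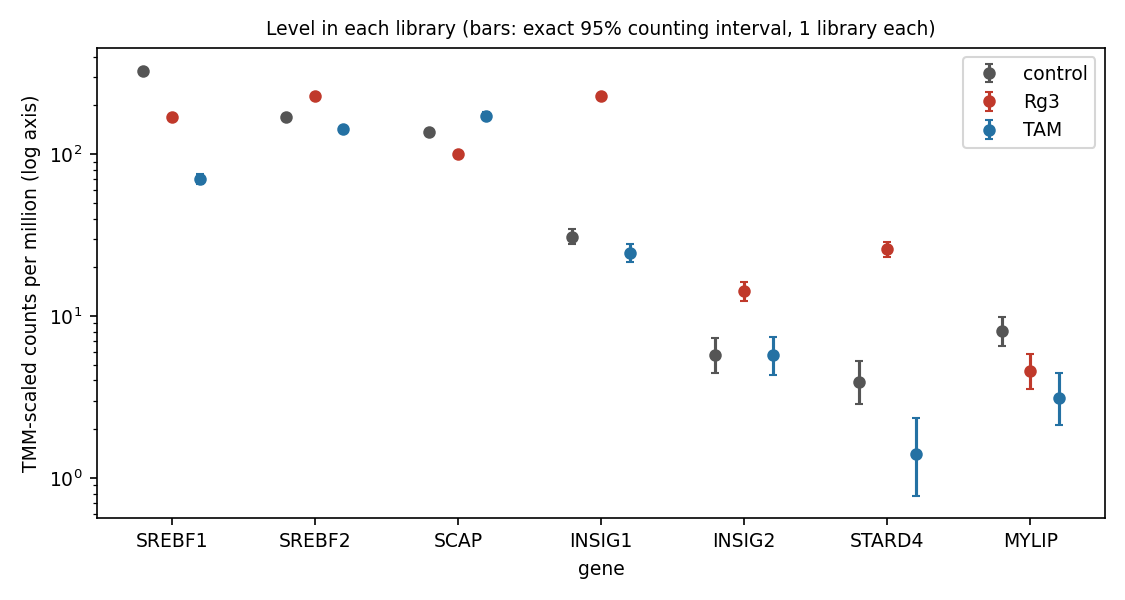
TMM-scaled CPM (counts as a share of the scaled library total, log axis) of the 7 genes in the control, Rg3 and TAM libraries, with exact 95% counting intervals as bars, 1 library each. INSIG1 stands at 30.9, 229 and 24.5 and STARD4 at 3.92, 25.8 and 1.41, each highest with Rg3.

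With Rg3, 3 of the 7 genes (INSIG1, INSIG2 and STARD4) were higher than in the control library and 2 (SREBF1 and MYLIP) were lower, where 25.0% of the 16487 genes compared were higher and 19.5% lower. With library totals those shares were 31.4% and 14.1%. The median log2 fold change of the 7 genes was 0.44, beside 0.04 over all genes. With the trend removed, the genes higher were INSIG1, STARD4 and SREBF2, again 3 of 7 (8.82% of all), and the 1 gene lower was MYLIP (10.1% of all). In bulk RNA, fewer cells and less RNA per cell cannot be told apart, here and in what follows.

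INSIG1 (chr7:155297776-155310235 in GENCODE 29, GRCh38, plus strand), the retention protein that is itself a target of SREBP, had 355 counts in control cells, 3291 after Rg3 and 244 after TAM. The Rg3 library was far above the others, which lay close together. Its log2 fold change with Rg3 was 2.89 (95% interval 2.73 to 3.05), or 7.39-fold, and 8 of the 16487 genes had a larger one. With the trend removed it was 2.61, with 6 of 14279 genes above it. INSIG2 (chr2:118088452-118110997, plus strand), the second retention protein, had far fewer reads, with 66, 205 and 57 counts in the same order. It rose 2.48-fold with Rg3 (log2 1.31, 0.90 to 1.73), and genes with a transcript as poor in GC (35.4%) were also high in this library. With the trend removed its log2 fold change was 0.40 (-0.003 to 0.83), so the call of INSIG2 ended while that of INSIG1 did not.

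STARD4 (chr5:111496033-111512590, minus strand), the cholesterol carrier, had 45 counts in control cells, 371 with Rg3 and 14 with TAM, a separate level in each library. It rose 6.57-fold with Rg3 (log2 2.72, 2.27 to 3.20), and 13 genes had a larger fold change. Its transcript is also poor in GC (34.2%), and with the trend removed the log2 fold change was 1.77 (1.32 to 2.25), still past the limit, with 66 genes above it.

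The genes of the factors had fold changes of opposite sign with Rg3. SREBF1 (chr17:17810399-17837002, minus strand) had 3722 counts in control cells, 2444 with Rg3 and 701 with TAM, so that both treated libraries were below the control. It fell with Rg3 by 0.93 on the log2 scale (-1.01 to -0.86), but genes of its GC content (62.8%) were low in that library, and with the trend removed the value was -0.23, no longer called. SREBF2 (chr22:41833079-41907308, plus strand) had 1941, 3296 and 1417 counts. Its log2 fold change with Rg3 was 0.44 (0.36 to 0.52), short of the limit, and with the trend removed it was 0.90 and called higher. SCAP (chr3:47413694-47477126, minus strand), the escort of both, had 1568, 1432 and 1715 counts, or 137, 99.4 and 172 TMM-scaled CPM, with intervals that do not overlap. Its log2 fold change with Rg3 was -0.46 (-0.56 to -0.35) and took the other sign, 0.23, with the trend removed, not past the limit either way.

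MYLIP (chr6:16129125-16148248, plus strand), the ligase that acts on lipoprotein receptors, had 93 counts in control cells, 66 with Rg3 and 31 with TAM, lower in both treated libraries. It fell with Rg3 by 0.82 on the log2 scale (-1.30 to -0.35), and by 1.10 with the trend removed.

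**Figure D2:**
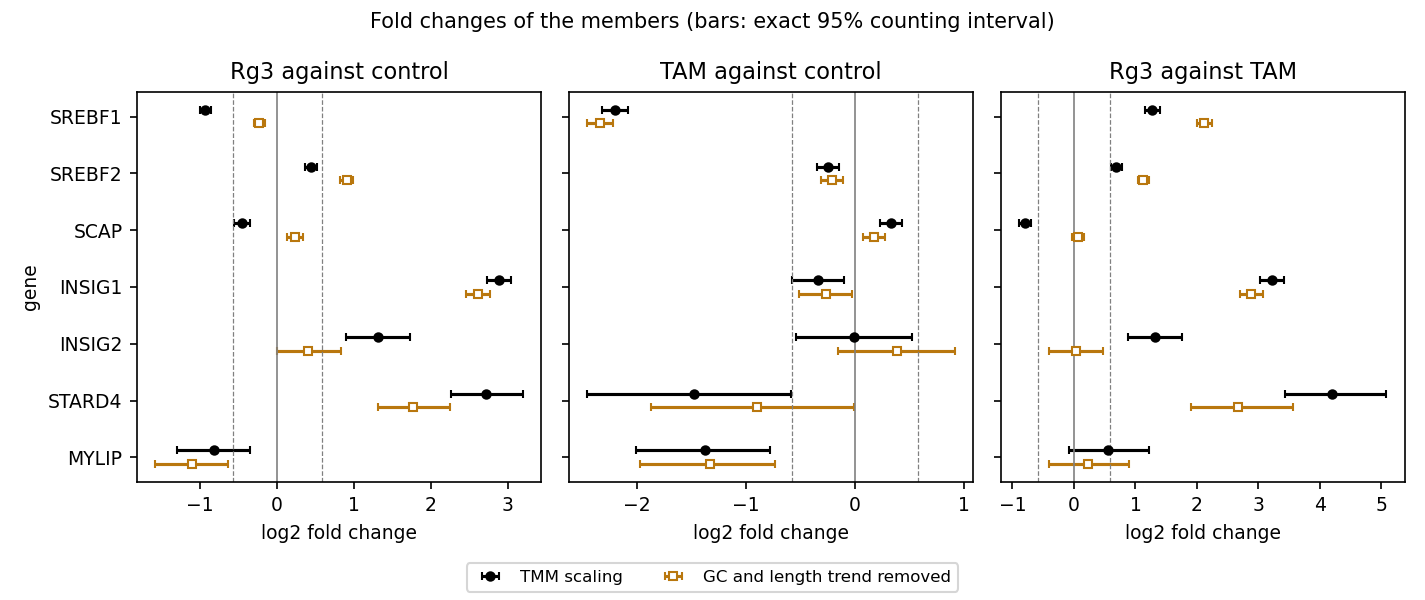
Log2 fold changes of the 7 genes for Rg3 against control, TAM against control and Rg3 against TAM, as filled points with TMM scaling and open points with the GC and length trend removed, with exact 95% counting intervals as bars and dashed lines at folds of 1.5 and 0.67. INSIG1 (2.89) and STARD4 (2.72) stand far right with Rg3 and SREBF1 (-2.20) far left with TAM, and removal of the trend brings INSIG2 with Rg3 from 1.31 to 0.40.

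With TAM, 3 of the 7 genes (SREBF1, STARD4 and MYLIP) fell and 0 rose against control, where 23.8% of the 16079 genes compared were lower and 17.4% higher. With library totals those shares were 32.7% and 9.80%. The median of the 7 genes was -0.33 on the log2 scale, beside -0.02 over all genes. Without the trend, the same 3 genes were lower (15.3% of all, and 14.1% higher).

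SREBF1 had the largest fall of the 7 genes with TAM, from 3722 to 701 counts, by 2.20 on the log2 scale (-2.32 to -2.09), or 4.60-fold. Only 131 of the 16079 genes had a lower value. Since genes rich in GC were high in this library, removal of the trend put SREBF1 at -2.34, with 58 of 14019 genes below it. SREBF2 changed by -0.25 (-0.35 to -0.15), SCAP by 0.34 (0.24 to 0.44) and INSIG1 by -0.33 (-0.58 to -0.10), none of them past the limits. INSIG2, with 66 and 57 counts, had a value of -0.01 (-0.54 to 0.53), whose sign depended on the scaling (-0.21 with library totals, 0.03 with DESeq2's size factors). STARD4 fell by 1.48 (-2.46 to -0.59) on 45 and 14 counts, and by 0.89 with the trend removed (-1.87 to -0.003). MYLIP fell by 1.38 (-2.01 to -0.78), and by 1.33 with the trend removed.

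SREBF1 and MYLIP, 2 of the 7 genes, were lower with both treatments, as were 4.08% of the 15833 genes compared in both. STARD4 was higher with Rg3 and lower with TAM, as were 9.13%. None of the 7 genes was higher with both (2.16% of all genes) or lower with Rg3 and higher with TAM (4.62%). Both comparisons use the same control library, so a low or high control value would move both alike.

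**Figure D3:**
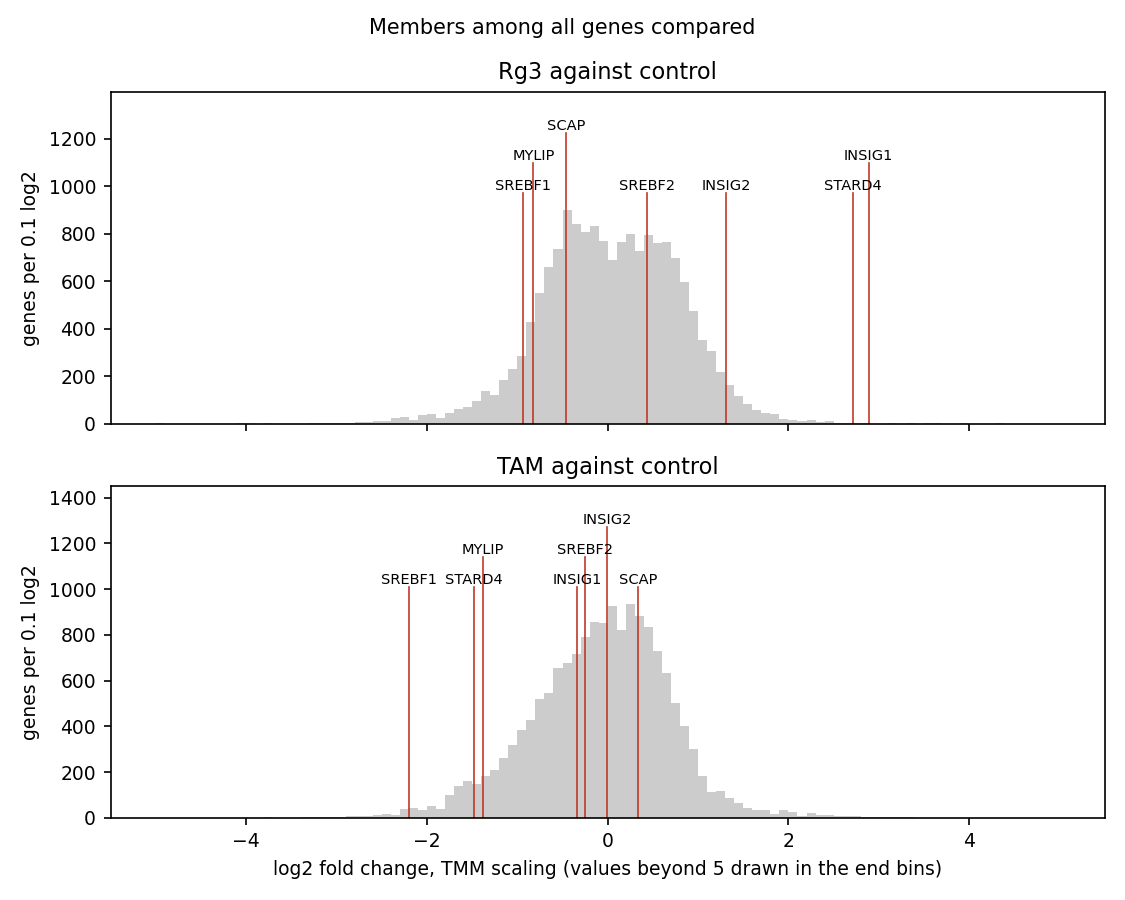
Number of genes per 0.1 of log2 fold change (grey bars) for Rg3 and TAM against control, with the 7 genes as labelled lines. With Rg3, INSIG1 and STARD4 lie in the upper tail, with 8 and 13 genes above them, and with TAM, SREBF1 lies in the lower tail, with 131 genes below it.

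Set directly against each other, the treated libraries differed past either limit in 6 of the 7 genes (65.3% of 16493 genes did): 5 were higher with Rg3 than with TAM and 1, SCAP, was lower, where 35.1% of all were higher and 30.2% lower (45.3% and 19.0% with library totals). STARD4 had the highest log2 fold change of all genes compared, 4.20 (3.43 to 5.08), or 18.3-fold on 371 and 14 counts, and 41 genes lay above its value of 2.67 with the trend removed. INSIG1 was at 3.22 (3.03 to 3.41), or 9.32-fold. SREBF1 was 2.41-fold higher with Rg3 (log2 1.27, 1.15 to 1.39), INSIG2 2.49-fold and SREBF2 1.61-fold. MYLIP differed by 0.56 (-0.08 to 1.22), a difference not detectable at this depth with TMM scaling, while with library totals it was 0.91 (0.27 to 1.57) and called higher. SCAP was lower with Rg3 by 0.79 on the log2 scale (-0.90 to -0.69), and with the trend removed its value was 0.06, of the other sign, while INSIG2 was at 0.03. With library totals SCAP was at -0.44 and was not called. With the trend removed, 4 of the 7 genes were higher with Rg3 than with TAM and 0 lower, where 19.3% of all were higher and 19.4% lower.

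**Figure D4:**
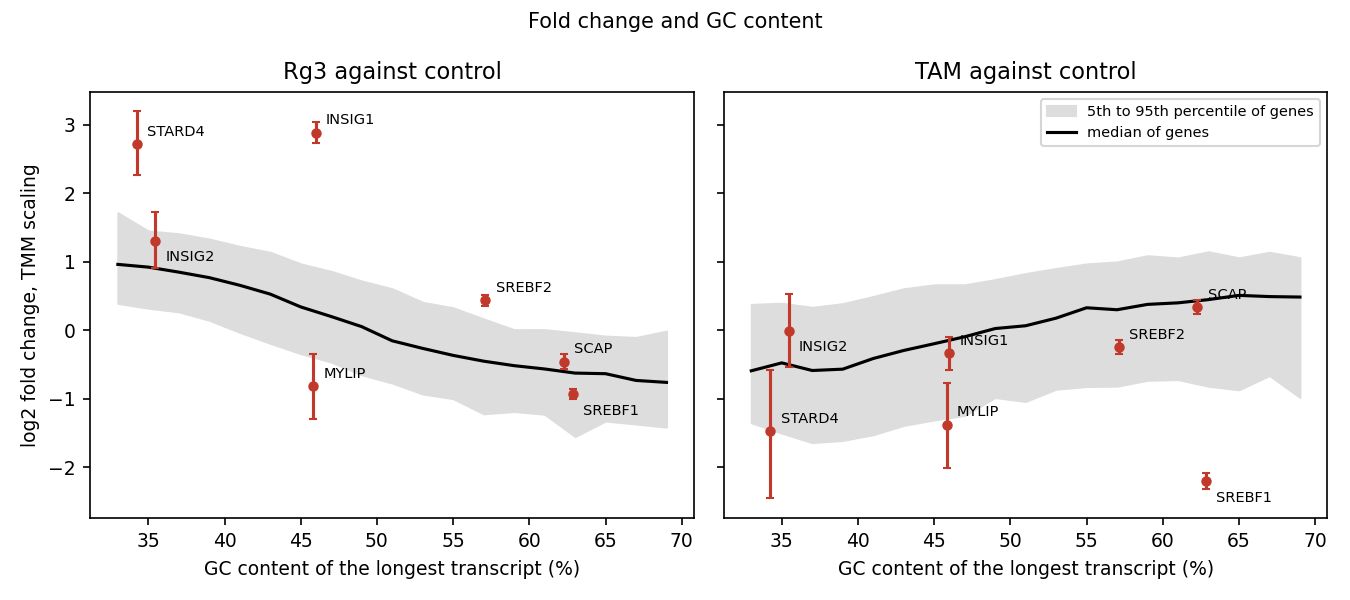
Log2 fold change (TMM scaling) against the GC content of the longest transcript, with the 7 genes as points with exact 95% counting intervals, the median of genes with at least 50 counts as a line and their 5th to 95th percentiles as a grey band. With Rg3, INSIG1, STARD4 and SREBF2 lie above the band and MYLIP below it, and with TAM, SREBF1 and MYLIP lie below it.

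The GC content of the 7 transcripts runs from 34.2% (STARD4) to 62.8% (SREBF1), so each gene was also placed among genes within the same 2 percentage points of GC content. With Rg3, INSIG1 was above each of 924 such genes and STARD4 above each of 249. SREBF2 was above 702 of 714, although its fold was under 1.5, and MYLIP was below 913 of 924. SREBF1, SCAP and INSIG2 lay between the 5th and 95th percentiles of their neighbours. With TAM, SREBF1 was below 444 of 447 such genes and MYLIP below 825 of 862. The other 5 genes, STARD4 among them (below 195 of 207), lay between the percentiles.

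Ratios of genes within a library do not depend on the scaling. SREBF2 had 0.521 reads for each read of SREBF1 in control cells (0.493 to 0.551), 1.35 with Rg3 (1.28 to 1.42) and 2.02 with TAM (1.85 to 2.22). Reads of the factor genes thus lay further toward SREBF2 in the Rg3 and TAM libraries than in their shared control. The ratio was higher by 2.59-fold (2.40 to 2.79) and 3.88-fold (3.48 to 4.32), and by 2.20-fold and 4.38-fold with the trend removed. With TMM scaling, this came in the Rg3 library with more reads of SREBF2 and fewer of SREBF1. In the TAM library it came with fewer reads of SREBF1, and the fold of SREBF2 stayed within the limits in both libraries. With the trend removed, SREBF2 with Rg3 was at 0.90 and called higher, while SREBF1 was at -0.23 and not called.

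INSIG1 had 0.226 reads for each read of SCAP, its binding partner, in control cells (0.201 to 0.254), 2.30 with Rg3 (2.16 to 2.45) and 0.142 with TAM (0.124 to 0.163). That was 10.2-fold more with Rg3 (8.89 to 11.6), or 5.21-fold with the trend removed, and 1.59-fold less with TAM, or 1.36-fold with the trend removed. INSIG1 to INSIG2 stood at 5.38, 16.1 and 4.28, a change of 2.98-fold with Rg3 (2.18 to 4.05), or 4.62-fold with the trend removed, and with TAM of 0.796-fold, with an interval that holds 1 (0.529 to 1.20). STARD4 to MYLIP, carrier to ligase, was 0.484 in control cells, 5.62 with Rg3 and 0.452 with TAM (0.222 to 0.874), 11.6-fold more with Rg3 (7.30 to 18.5), or 7.32-fold with the trend removed.

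**Figure D5:**
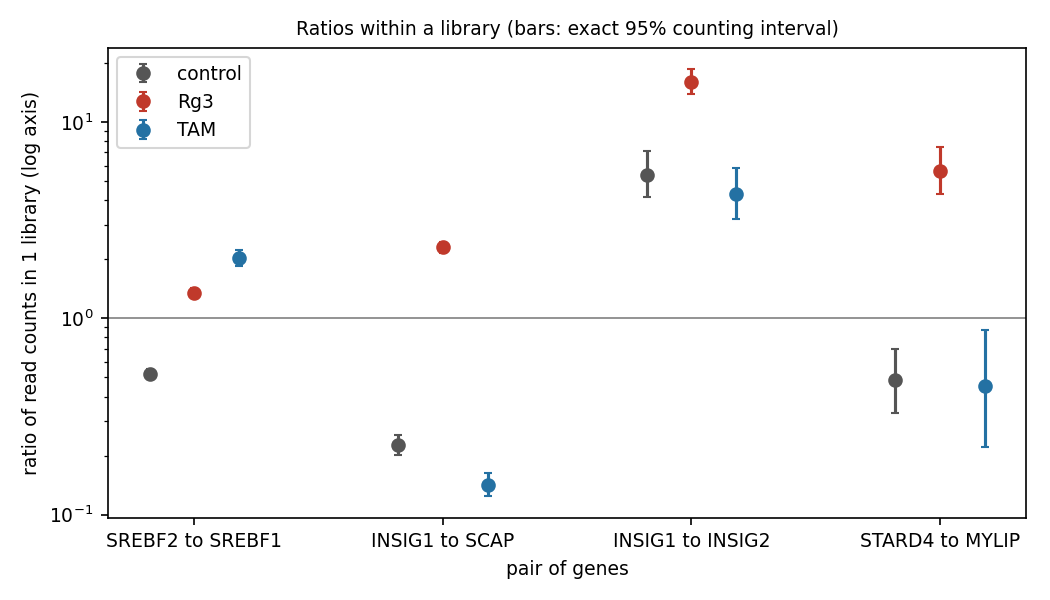
Ratio of read counts of 2 genes within 1 library (log axis) for 4 pairs in the control, Rg3 and TAM libraries, with exact 95% counting intervals as bars. SREBF2 to SREBF1 goes from 0.521 in control cells to 1.35 and 2.02, and INSIG1 to SCAP from 0.226 to 2.30 with Rg3 and 0.142 with TAM.

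Introns of SREBF2 and SREBF1 hold the genes of miR-33a and miR-33b, known to act on cholesterol export genes. Their main mature forms share 1 seed (bases 2 to 8, in capitals) and are shown because their hosts changed places between libraries.
hsa-miR-33a-5p (chr22:41900949-41900969, plus strand): gUGCAUUGuaguugcauugca
hsa-miR-33b-5p (chr17:17813897-17813916, minus strand): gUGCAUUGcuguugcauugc
Both genes, MIR33A and MIR33B, had 0 counts in each library, so no level or change of the microRNAs could be read from these files. Exons of SREBF1 overlap RAI1 on the opposite strand over 556 bases (1155, 882 and 663 counts on RAI1), exons of SREBF2 overlap SREBF2-AS1 over 280 and exons of STARD4 overlap STARD4-AS1 over 124 (1, 2 and 2 counts on STARD4-AS1). The use of strand in counting is not given in the sources used here. Stretches of 50 bases shared with another gene made up 2.58% of SREBF2, all with SREBF2-AS1, 1.67% of STARD4, all with STARD4-AS1, and 0% of the other 5 genes.

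Genes that carry or cut SREBP came next in the pathway. A list of 14 genes held those of the COPII coat, which buds vesicles from the ER, the Golgi proteases, PAQR3 and C12orf49. Of the 14, 5 rose with Rg3 and 0 fell (median log2 0.41), near the 25.0% of all genes that were higher. Among the 5 were PAQR3, which tethers the SCAP complex at the Golgi (1.45), and SAR1B, the GTPase that starts the coat (1.28). After removal of the trend, 0 rose and 0 fell (8.82% and 10.1% of all genes). With TAM, 4 fell and 0 rose (median -0.38, beside 23.8% of all genes lower), among them the site-2 protease gene MBTPS2 (-1.12) and the coat genes SEC24A (-1.06) and SEC31A (-0.99). With the trend removed 1 was lower and 2 were higher (15.3% and 14.1% of all genes). The site-1 protease gene MBTPS1 had a value of -0.19 with Rg3. Of 13 genes for the turnover of INSIG and SREBP proteins, 1 rose with Rg3, the ligase gene RNF139 (0.93), and 0 fell (median 0.01), a smaller share than the 25.0% of all genes higher and 19.5% lower. Once the trend was removed, 0 were higher and 1 was lower (8.82% and 10.1% of all genes), with RNF139 at 0.56. With TAM, 2 fell (23.8% of all genes did) and 0 rose (median 0.21). These were FBXW7 (-0.98), whose product marks nuclear SREBP for degradation, and MARCH6 (-0.64, but 0.17 with the trend removed). Removal of the trend left 0 lower and 1 higher (15.3% and 14.1% of all genes).

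Target genes of the factors differed between treatments. Of 14 genes on a list of lipogenic targets, 13 rose with Rg3 and 0 fell (median log2 1.59), beside 25.0% of all genes higher. SREBF1 itself was not higher. LPIN1 (2.28), ELOVL6 (2.03) and TMEM97 (1.96), the last not an enzyme of fatty acid synthesis, had the largest values and ACACA (0.53) the smallest. Without the trend, 10 were higher (8.82% of all genes, median 1.53). With TAM, 8 of the 14 fell and 0 rose (median -0.80, beside 23.8% of all genes lower), with LPIN1 (-1.62), ACACA (-1.54) and SCD (-1.49) lowest. With the trend removed, 7 fell (median -0.56, beside 15.3% of all genes lower). Of 21 genes of sterol synthesis, 19 rose with Rg3 (median 1.65, beside 25.0% of all genes higher), and the exceptions were TM7SF2 (0.27) and PMVK (-0.36). After removal of the trend, 19 were again higher, with TM7SF2 (0.97) among them and LBR (0.81 before, -0.02 after) no longer. With TAM, 6 of the 21 rose and 1 fell (median 0.23), with ACAT2 at 1.10, MVD at 1.01 and HMGCS1 at -0.62, beside 17.4% of all genes higher and 23.8% lower. With library totals 3 rose and 2 fell, beside 9.80% and 32.7% of all genes. With the trend removed 2 rose and 0 fell, beside 14.1% and 15.3%, with HMGCS1 at -0.23. These lists were chosen with earlier results of these data known.

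SREBF1 and MYLIP are also targets of the LXR receptors, and 9 of 12 other LXR genes could be compared. With Rg3, 7 fell and 0 rose (median -0.68), where 19.5% of all genes were lower. With library totals 3 fell (14.1% of all genes), and with the trend removed 4 fell (10.1% of all, median -0.36). ABCA1, the cholesterol export pump, had 60 counts in control cells, 10 with Rg3 and 5 with TAM, lower in both treated libraries, with log2 fold changes of -2.91 (-4.04 to -1.93) and -3.38 (-5.05 to -2.08). ABCG1, a second export pump chosen after its values were seen, had 19, 6 and 2 counts. The receptor gene NR1H2 fell with Rg3 by 0.68, was at -0.05 with the trend removed, and rose with TAM by 0.64, or 0.27 and not called with the trend removed. NR1H3, the second receptor gene, fell with Rg3 by 0.59, was at -0.17 and not called with the trend removed, and was at 0.23 with TAM. With TAM, 4 of the 9 fell, LPCAT3 (-0.76) among them, and 2 rose, with APOC1 at 0.91 (median -0.19), beside 23.8% of all genes lower and 17.4% higher. Once the trend was removed, 4 were lower and 1 higher, beside 15.3% and 14.1% of all genes.

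Of 15 genes of lipoprotein uptake, including the partners of MYLIP, 6 rose with Rg3 and 2 fell (median 0.46), beside 25.0% of all genes higher and 19.5% lower. LIPA (1.14) and NPC2 (1.03), which free and bind cholesterol in lysosomes, and SORT1 (0.93) rose, while LRP1 (-0.85) and SCARB1 (-0.62), a pair of lipoprotein receptor genes, fell. Without the trend, 3 were higher and 0 lower, beside 8.82% and 10.1% of all genes. With TAM, LRP1 (-1.12), USP2 (-0.91), the deubiquitinase gene of MYLIP, and DAB2 (-0.71) fell, and LRPAP1 rose (0.60), so that 3 of 15 fell and 1 rose (median -0.22), beside 23.8% and 17.4% of all genes. After removal of the trend, 3 were higher and 1 lower, beside 14.1% and 15.3% of all genes. LRP1 (-0.56) and DAB2 (-0.42) were then no longer called. Of 10 compared genes of sterol transfer besides STARD4, 3 rose with Rg3 and 2 fell (median 0.12), and 3 fell with TAM and 0 rose (median -0.33), near the shares of all genes. Once the trend was removed, 1 was higher and 0 lower with Rg3 (8.82% and 10.1% of all genes), and 2 were lower with TAM (15.3%). STARD5, a close relative of STARD4, had 63, 67 and 47 counts and values of -0.24 and -0.22. OSBPL9 rose with Rg3 (0.88) and fell with TAM (-0.76), neither of them called with the trend removed (0.24 and -0.28), and OSBP, an oxysterol-binding protein gene, was at 0.58 and fell with TAM by 0.62, or 0.41 and not called with the trend removed.

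For each of the 7 genes, the genes most like it were sought among 9862 with at least 100 counts, by the distance between their pairs of log2 fold changes (Rg3 and TAM against control). These distances rest on 3 libraries with 1 shared control. IDI1 (0.23) and SC5D (0.41), enzymes of sterol synthesis, were among the genes nearest to INSIG1. STARD4 was nearest to LPIN1 (0.46), ACSL4 (0.90) and SCD (0.91). For SREBF1 the nearest were CD24P4 (0.12), a pseudogene that can share reads with its parent, EFHD1 (0.15) and NFATC2 (0.18), and for MYLIP they were MFGE8 (0.08), DKK1 (0.14) and TFAP2C (0.15). INSIG2 had GPATCH11 (0.04), UCHL3 (0.05) and ETV1 (0.07) nearest. SREBF2, with ZNF274, NUDT5 and SLC45A4 each at 0.03, and SCAP, with GAPDHP65, CDC25B and CLPTM1 each at 0.01, lay among many genes with such values.

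Without replicates, the spread between cultures could only be assumed. If replicate cultures varied with a biological coefficient of 0.2, the widened 95% intervals left out 0 for INSIG1, INSIG2, STARD4 and SREBF1 with Rg3, but not for MYLIP (-1.74 to 0.10), and for SREBF1, STARD4 and MYLIP with TAM. At 0.4, they left out 0 for INSIG1 (1.28 to 4.49) and STARD4 (1.06 to 4.38) with Rg3 and for SREBF1 (-3.81 to -0.60) with TAM. All these intervals are centred on folds with TMM scaling. With the trend removed, INSIG2 (0.40, counting interval -0.003 to 0.83) and SREBF1 (-0.23) were not called with Rg3.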

How the data were processed

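Total RNA of PANC-1 cells was sequenced on the Ion Proton platform per the labels, 1 library per condition. The authors checked reads with FAST-QC, used TopHat for alignment, and the deposited table gives unscaled counts for 51136 gene names. The submitters' processing notes list GRCh38. The annotation, the counting tool and the use of strand are not given in the sources used here, and different reading of overlapping genes could change counts there. Groups were taken from the labelled agent.

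From these counts, TMM factors were computed with edgeR 4.0.16 (R 4.3.3) over the whole table, 1.02 for control, 1.12 for Rg3 and 0.879 for TAM, and log2 fold changes in Python 3.11.15 (SciPy 1.17.1) where 1 of the libraries compared reached 10 counts. A count below 3 entered a fold as 3. The fold limits of the study's methods (1.5 and 0.67) were used without their false discovery rate, which needs replicates. Intervals are exact, at 95%. The trend on GC content and length (loess, span 0.3) used the longest GENCODE 29 transcript of a name, which 86.6% (Rg3) and 87.2% (TAM) of compared genes have. Transcript levels per kilobase used the same length. Promoter and microRNA sequences are from RefSeq (GRCh38.p14), which held all 7 genes. For other genes, up to 3 of the highest and 3 of the lowest in a list with at least 50 counts were named, and the 3 genes nearest to each of the 7. Some genes that these rules name are not reported here. The 7 genes, the lists and the rules were chosen with earlier results of these data known. Alternatives were library totals, DESeq2 1.42.0 size factors, count filters of 1 and 50, folds of 2 and 0.5, assumed variation and trend removal. The steps were tested on simulated data that held no variation between cultures. The genes changed there averaged at least 100 counts, more than MYLIP had in any library.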

Additional observations from a re-analysis of the deposited data

How the results depend on the processing

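No paired analysis was possible because 1 library stands for each condition, and no library could be left out for the same reason. Filters of 1 or 50 counts, DESeq2's size factors and the demand that the counting interval leave out a ratio of 1 kept each count of called members within 1.5 times and each median inside the counting interval of the middle gene. The filter of 50 counts did remove STARD4, with 45 and 14 counts, from TAM against control, so that its call as lower was lost there. With library totals, the median log2 fold change of the 7 genes moved from 0.44 to 0.58 with Rg3 and from 1.27 to 1.62 for Rg3 against TAM, and 0 genes were lower in the latter in place of 1, through the shift of the scaling itself. With the GC and length trend removed, 1 gene was lower with Rg3 in place of 2, and for Rg3 against TAM 0 were lower and the median was 1.13. With folds of 2 and 0.5, 0 were lower with Rg3 and 0 for Rg3 against TAM. With an assumed variation of 0.2, 1 gene was lower with Rg3 and 0 for Rg3 against TAM. With 0.4, 0 were lower with Rg3, 1 with TAM and 0 for Rg3 against TAM, where 2 were higher in place of 5. The count higher with Rg3 was 3 in the main setting and with the trend removed, but with INSIG2 replaced by SREBF2.

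Among 147 values of single genes followed through these settings, removal of the trend turned the sign of 11 called ones, and it also turned that of other listed genes, such as SEC23A with Rg3 (0.72 to -0.13). With Rg3 these were LBR (-0.0193) and GRAMD1A (0.12), and with TAM MARCH6 (0.17). For Rg3 against TAM they were SCAP (0.0642), UBE2J2 (0.14), MARCH6 (-0.50), AUP1 (0.0510), SMPDL3A (-0.13), SCP2 (-0.0600), VLDLR (-0.0121) and UBE2D1 (-0.0121). The construction of the alternative, which takes from a gene the value common to transcripts of its GC content and length, accounts for these. Depth limits MYLIP, STARD4 and INSIG2 most, with 14 to 93 counts in control and TAM.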

Other observations

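Once the GC and length trend was removed, SREBF2 joined INSIG1 in being higher with Rg3 and within the fold limits with TAM, as were 619 of 13865 genes (4.46%). STARD4 remained higher with Rg3 and lower with TAM, shared by 143 of those genes (1.03%), and MYLIP lower with both, shared by 467 (3.37%). SREBF1 was then lower with TAM and within the limits with Rg3, as were 1529 (11.0%). INSIG2 and SCAP were within the limits in both, as were 8502 (61.3%).

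Another pair of ratios within a library sets the factors against their escort. SREBF1 had 2.37 reads for each read of SCAP in control cells, 1.71 with Rg3 and 0.409 with TAM, a change of 0.719-fold (0.658 to 0.786) and 0.172-fold (0.155 to 0.192). SREBF2 had 1.24, 2.30 and 0.826 reads for each read of SCAP, a change of 1.86-fold (1.70 to 2.04) with Rg3 and 0.667-fold (0.605 to 0.736) with TAM. With the trend removed, SREBF1 to SCAP changed 0.726-fold with Rg3 and 0.175-fold with TAM, and SREBF2 to SCAP 1.59-fold and 0.765-fold.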
